A study of Mus musculus with 4 samples.

Results

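Apolipoproteins and the proteins that process lipoproteins were examined in the aorta of mice that lack apolipoprotein E. The set comprised 10 genes (Apoe, Apoc1, Apoc2, Apod, Apoa1, Pltp, Lcat, Lpl, Lrp1 and Vldlr), chosen by name. Every probe set that the platform annotation pairs with exactly 1 of them was taken, which gave 18 of 22626 probe sets. Total aortic RNA of 6-week-old female apoE-/- mice was hybridised to a 1-colour Affymetrix array, with 1 array per group. The groups were C3H/HeJ mice (C3H below) on Western diet, C3H mice on chow, C57BL/6 mice on Western diet and C57BL/6 mice on chow. All mice carried the disrupted Apoe gene and had been weaned onto chow at 3 weeks. The Western groups changed diet at 4 weeks and ate it for 2 weeks. The labels describe the chow groups as hyperlipidemic and the Western groups as extremely so. No apoE+/+ mice were analysed here, and the sources used here give neither the targeting construct nor the number of animals behind an array.

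Lipoproteins carry cholesterol and triglyceride in blood, and apolipoproteins are their protein coats. Apolipoprotein E is the ligand by which remnant particles are taken up by receptors of the LDL receptor family, among them LRP1 and the VLDL receptor. Apolipoprotein C-II activates lipoprotein lipase, which frees fatty acids from triglyceride at the capillary wall, while PLTP and LCAT remodel high-density lipoproteins. In and around the vessel wall, macrophages make apolipoproteins E and C-I, and fat and muscle cells make most of the lipase.

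A promoter window, from 250 bases before to 50 bases after a RefSeq gene start (GRCm38.p6), was found for 8 of the 10 genes. The windows of 3 genes are shown, in lower case with capitals marking the TATA motif TATAAA, the box CCAAT and the half-site AGGTCA on either strand. Pltp is shown because both of its probe sets kept the strains apart, Apoc2 because it is the lipase cofactor and its window was the only one of those found for the 10 genes to hold the half-site, and Apod because it was the apolipoprotein of this set that was measured on every array.
Pltp, chr2:164857659-164857958, minus strand: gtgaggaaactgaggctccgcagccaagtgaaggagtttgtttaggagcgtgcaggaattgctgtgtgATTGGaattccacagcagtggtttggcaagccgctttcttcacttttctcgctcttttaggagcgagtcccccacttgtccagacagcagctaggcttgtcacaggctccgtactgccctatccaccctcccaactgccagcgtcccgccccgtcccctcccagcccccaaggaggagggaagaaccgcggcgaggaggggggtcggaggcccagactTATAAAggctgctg
Apoc2, chr7:19677892-19678191, minus strand: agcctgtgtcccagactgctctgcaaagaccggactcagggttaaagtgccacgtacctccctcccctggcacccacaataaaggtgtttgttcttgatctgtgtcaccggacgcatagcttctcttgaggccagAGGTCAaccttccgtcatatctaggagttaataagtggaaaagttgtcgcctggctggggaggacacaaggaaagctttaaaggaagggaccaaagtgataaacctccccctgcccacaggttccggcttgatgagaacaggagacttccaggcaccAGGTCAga
Apod, chr16:31314759-31315058, minus strand: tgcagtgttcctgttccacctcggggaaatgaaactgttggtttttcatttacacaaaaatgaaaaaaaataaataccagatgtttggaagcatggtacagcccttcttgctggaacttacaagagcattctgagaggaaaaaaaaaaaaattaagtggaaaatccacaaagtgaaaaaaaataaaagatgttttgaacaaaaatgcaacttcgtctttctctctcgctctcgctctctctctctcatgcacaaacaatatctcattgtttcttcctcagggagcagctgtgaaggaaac

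The nuclear receptor half-site AGGTCA occurred in 2 places in the Apoc2 window, at -115 and at 43 relative to the start, and in 16.3% of all 32851 windows. The Pltp window held TATAAA at 37 after the start, a motif of 13.6% of all windows, and CCAAT on the reverse strand at -182, a motif of 37.4%. Its GC box GGGCGG, which is not capitalised, lay on the reverse strand at -37 and occurs in 35.7% of windows. The Apod window held none of these letters. Paired half-sites with the spacing that liver X receptors bind (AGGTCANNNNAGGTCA, overlapping the single half-site) were in 5 of all windows and in none of those found for the 10 genes.

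Signals are linear and quantile normalized. Signals at or under 83.6, the 40th percentile of all values, are read as bounds, and this limit is called the floor. Of the 18 probe sets, 9 exceeded the floor on every array (Apod, Lrp1, both of Lpl, both of Pltp and 3 of Vldlr), 6 on some arrays and 3 on none. Differences are log2 values between single arrays, without a replicate check, and "called" below means a difference of at least 2-fold with both arrays above the floor. In these data different probe sets of 1 gene differ within a comparison by a pooled SD of log2 0.483 to 0.602. This spread between probe sets is used below as a scale. It does not measure error between animals or arrays, which 1 array per group leaves unknown. The C3H chow array was the least like the others, with correlations of 0.868 to 0.904 against 0.913 to 0.931 among the rest and an actin 3'/5' signal ratio of 2.28 against 1.63 to 1.83. Smooth muscle markers of the aortic media were above the floor on every array (9 of 9), and so were 7 of 8 endothelial, 6 of 7 adipocyte and 7 of 7 brown adipocyte markers. Heart muscle markers split by strain, with 10 of 10 above the floor on each C57BL/6 array and 3 on each C3H array. Both strain comparisons therefore set arrays with much heart muscle signal against arrays with little. The part of heart tissue in the strain differences below was not tested. In bulk RNA such as this, fewer cells of a type and less RNA per cell cannot be told apart.

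Apoe, the disrupted gene, stayed under the floor on every array. Its single probe set had signals of 55.5 on C3H Western, 16.1 on C3H chow, 65.3 on C57BL/6 Western and 19.1 on C57BL/6 chow. Both Western arrays thus gave more signal than both chow arrays, but no fold is given between values under the floor. With a floor at the 25th percentile, a signal of 32.6, the Western values would count as measured and the chow values would not. It is unknown here whether this probe set lies inside the disrupted stretch of the gene.

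Apoc1, which encodes apolipoprotein C-I, an inhibitor of remnant uptake, had 1 probe set, and its low array was C57BL/6 chow. Signals were 293.8 on C3H Western, 584.7 on C3H chow, 447.1 on C57BL/6 Western and 42.2 on C57BL/6 chow. On chow it was therefore at least 7.0-fold higher in C3H (log2 of at least 2.81), and on Western diet 1.52-fold lower in C3H (log2 -0.61). Western diet went with a signal at least 5.35-fold higher in C57BL/6 and 1.99-fold lower in C3H, just short of the 2-fold threshold. The chow strain difference and the C57BL/6 diet difference share the C57BL/6 chow array, which alone was under the floor. The macrophage list, whose cells make this protein, had summed signals of 6467 on C3H Western, 3773 on C3H chow, 5108 on C57BL/6 Western and 4056 on C57BL/6 chow, and its part in the result was not tested. The additive limma fit takes the low C57BL/6 chow signal as measured and not as a bound. In it, Apoc1 had a strain term of log2 1.59 ± 0.74 (SE, C3H minus C57BL/6, adjusted p = 0.833).

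Apoc2, the cofactor of lipoprotein lipase, was near or under the floor throughout, with signals of 50.7 on C3H Western, 94.1 on C3H chow, 21.1 on C57BL/6 Western and 38.2 on C57BL/6 chow. Only the C3H chow array passed, which gives a bound of at least 1.13-fold against either neighbour in the design. Apoe, Apoc1, Apoc4 and Apoc2 lie in 1 cluster on chromosome 7, with the predicted gene Gm44805 among them in RefSeq. Apoc4, the remaining apolipoprotein gene of the cluster, was under the floor on all arrays (74.6 on C3H Western, 42.6 on C3H chow, 10.2 on C57BL/6 Western and 13.3 on C57BL/6 chow).

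Apod, a lipocalin carried on high-density lipoprotein and made locally by fibroblasts and glia, was measured on every array. Its signals were 703.2 on C3H Western, 620.0 on C3H chow, 787.0 on C57BL/6 Western and 364.7 on C57BL/6 chow. The C57BL/6 chow array stood below the rest, which lay close together. Western diet went with a 2.16-fold higher signal in C57BL/6 (log2 1.11), against 1.13-fold higher in C3H (log2 0.18), and on chow it was 1.70-fold higher in C3H. The diet term of the additive limma fit was log2 0.65 ± 0.36 (SE, Western minus chow, adjusted p = 1.0), and the strain term 0.30 ± 0.36 (adjusted p = 0.912). By summed signal, fibroblast and matrix markers were highest on the array where Apod was lowest. The sums were 33763 on C3H Western, 18315 on C3H chow, 25612 on C57BL/6 Western and 66655 on C57BL/6 chow (9 members on the array). Among them Lum was higher on C3H Western (1355.9) than on C57BL/6 chow (1246.8). Markers of Schwann cells, a glial type, summed to 3358, 2758, 2670 and 4117 on the same arrays. Of these markers, Pmp22 was highest on C57BL/6 chow (3689.3), S100b and Mal were lowest there (38.5 and 90.2), and Mbp and Sox10 were neither. The part of either list in the result was not tested.

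Apoa1, the main protein of high-density lipoprotein, made in liver and intestine, was above the floor on 1 array at most by each of its 4 probe sets. Set 1419232_a_at reached 205.8 on C3H chow and 4.76 to 36.9 on the others. Set 1419233_x_at reached 142.3 on C3H Western and 10.1 to 12.4 elsewhere, and the remaining sets stayed under the floor on all arrays, at 22.9 to 52.1 for 1455201_x_at and 10.7 to 80.6 for 1438840_x_at. No array was thus above the floor by more than 1 of the 4 sets, so the C3H bounds, at least 2.46-fold higher on chow and at least 1.70-fold on Western diet, each rest on a different probe set. Of 11 hepatocyte markers on the array, Ttr and Tat were under the floor on all arrays and the other 9 passed it on 1 or 2, the highest being Ahsg at 198.8 on C3H Western, 17.5 on C3H chow, 9.51 on C57BL/6 Western and 210.1 on C57BL/6 chow. Albumin had 100.3 on C3H Western, 93.7 on C3H chow, 37.7 on C57BL/6 Western and 9.16 on C57BL/6 chow. Any one array had 2 to 5 of these hepatocyte markers above the floor. Of 5 enterocyte markers, Rbp2 passed the floor on C3H chow alone (158.9) and Lct on C3H Western alone (103.9). Fabp2, Vil1 and Apoa4 stayed under the floor on all arrays. The part of either cell type in the result was not tested.

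**Figure D1:**
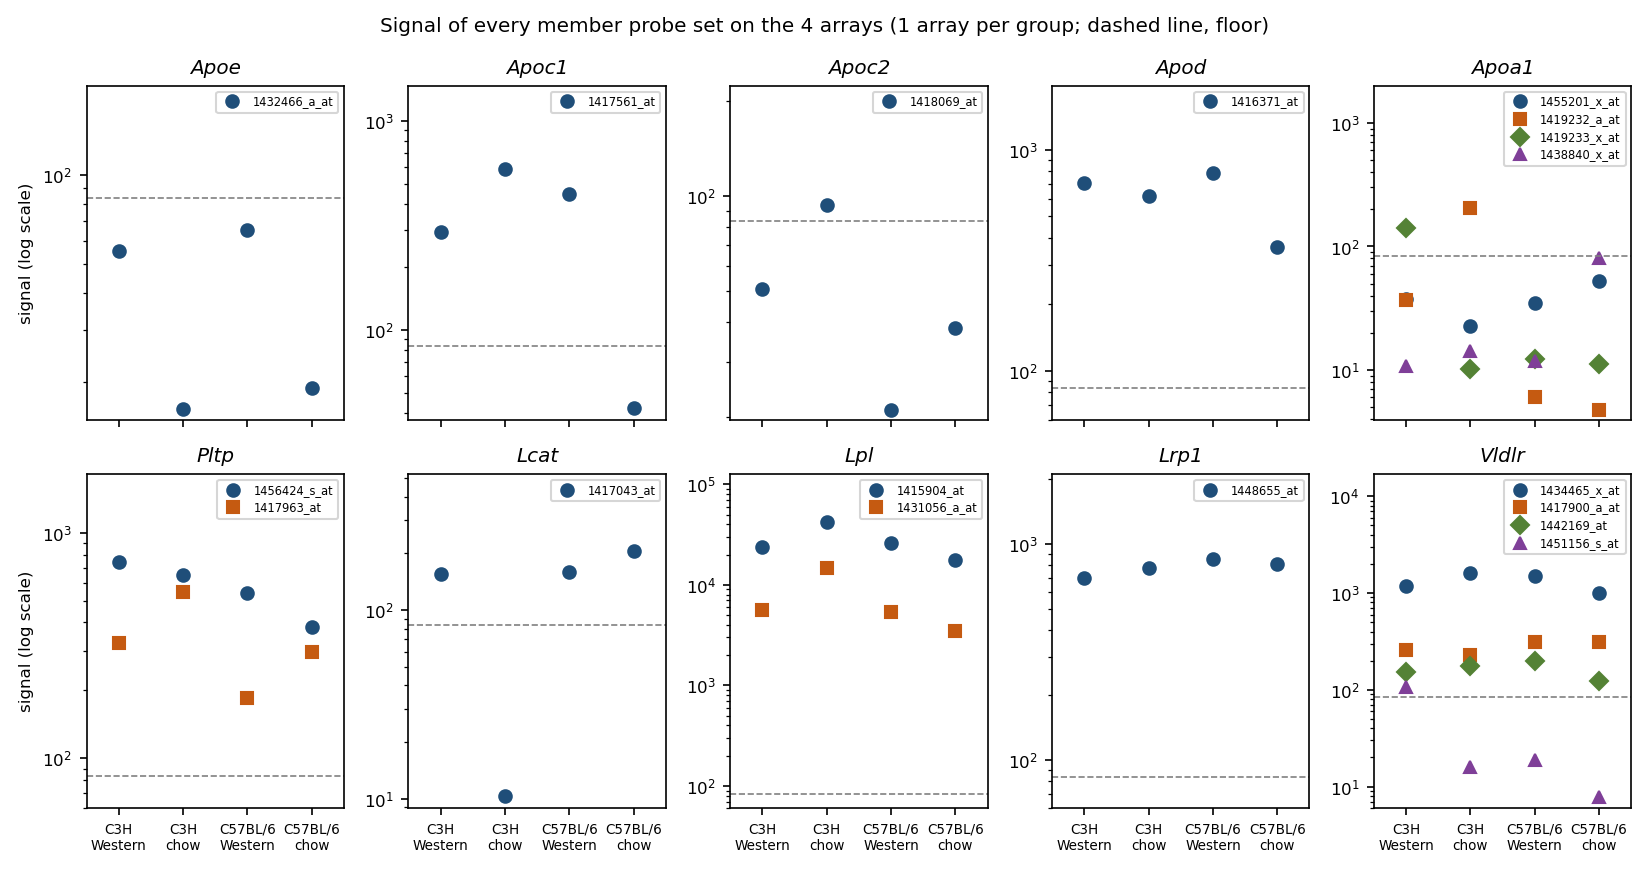
Signals of all 18 probe sets (log axis, linear signal values) on the 4 arrays, 1 panel per gene, 1 array per group, with the floor of 83.6 as a dashed line. Lpl is highest on C3H chow by both probe sets (41872 and 14752), Apod and Apoc1 are lowest on C57BL/6 chow (364.7 and 42.2), and Apoe stays under the floor on every array.

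Of the plasma remodelling proteins, Pltp, which transfers phospholipid between lipoproteins, was higher in C3H than in C57BL/6 on both diets by both of its probe sets. Set 1456424_s_at had signals of 740.0 on C3H Western, 652.3 on C3H chow, 538.9 on C57BL/6 Western and 382.5 on C57BL/6 chow, so both C3H arrays lay above both C57BL/6 arrays. Set 1417963_at had 324.7 on C3H Western, 548.3 on C3H chow, 184.7 on C57BL/6 Western and 294.6 on C57BL/6 chow, and here too no C57BL/6 value reached a C3H value. The share of all probe sets that keep the strains apart in this way was not counted. The strain differences were 1.37-fold and 1.76-fold on Western diet and 1.71-fold and 1.86-fold on chow, none of which passes 2-fold. The smallest, log2 0.46, was under the spread between probe sets of a gene, and the rest were above it. Heart muscle markers also kept the strains apart. Their summed signals were 762.6 on C3H Western, 901.2 on C3H chow, 14303 on C57BL/6 Western and 18419 on C57BL/6 chow. Their part in the Pltp result was not tested. In the additive limma fit the strain terms were log2 0.61 ± 0.35 and 0.86 ± 0.45 (SE), each with an adjusted p of 0.847. With Western diet the probe sets disagreed in sign, by log2 0.18 and -0.76 in C3H and by 0.49 and -0.67 in C57BL/6.

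Lcat, which esterifies cholesterol on high-density lipoprotein, was above the floor on every array but C3H chow. Signals were 155.7 on C3H Western, 10.3 on C3H chow, 160.1 on C57BL/6 Western and 205.9 on C57BL/6 chow. Between the strains it was lower in C3H, by at least 2.46-fold on chow but by 1.03-fold on Western diet. The Western diet went with a signal at least 1.86-fold higher in C3H and 1.29-fold lower in C57BL/6. Both bounds rest on the C3H chow array, and the pairs without it differ by log2 -0.04 and -0.36, under the spread between probe sets of a gene. Its strain term in limma, which takes the low signal as measured, was log2 -2.18 ± 1.22 (SE, adjusted p = 0.847).

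Lpl, lipoprotein lipase, gave the largest measured difference of the set, between the strains on chow. Its set 1415904_at had signals of 23565 on C3H Western, 41872 on C3H chow, 26196 on C57BL/6 Western and 17796 on C57BL/6 chow. Set 1431056_a_at had 5597.5 on C3H Western, 14752 on C3H chow, 5339 on C57BL/6 Western and 3487 on C57BL/6 chow. By either set C3H chow was the highest array and C57BL/6 chow the lowest, with the Western arrays close together between them. On chow Lpl was 2.35-fold and 4.23-fold higher in C3H (log2 1.23 and 2.08), and on Western diet the strains differed by log2 -0.15 and 0.07. With Western diet it was 1.78-fold and 2.64-fold lower in C3H (log2 -0.83 and -1.40) and 1.47-fold and 1.53-fold higher in C57BL/6 (log2 0.56 and 0.61). Set 1415904_at was among the brightest on the array, with 3 to 36 of all probe sets brighter, and it gave the smaller differences between the chow arrays. With cyclic loess normalization its strain difference on chow was log2 0.96, which is under 2-fold. In the additive limma fit, which takes this crossing pattern as error, the strain terms were log2 0.54 ± 0.64 and 1.07 ± 0.43 (SE, adjusted p = 0.910 and 0.755).

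Brown adipocyte markers, a cell type that makes lipase, were also highest on C3H chow. Their summed signals (7 of 7 members above the floor on every array) were 57606 on C3H Western, 85053 on C3H chow, 49898 on C57BL/6 Western and 43127 on C57BL/6 chow, and general adipocyte markers followed with 53169, 65893, 49701 and 39909 on the same arrays. On chow the brown list was higher in C3H by a median of log2 1.23 (5 of 7 at least 2-fold higher, 0 lower), and with Western diet it was lower in C3H by -1.31 (4 of 7 at least 2-fold lower, 0 higher). Heart muscle, another source of the lipase, ran the other way, with summed marker signals of 762.6 and 901.2 on C3H Western and C3H chow and 14303 and 18419 on C57BL/6 Western and C57BL/6 chow. All 10 heart markers were above the floor on each C57BL/6 array and 3 on each C3H array. The part of fat or heart tissue in the Lpl result was not tested.

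**Figure D2:**
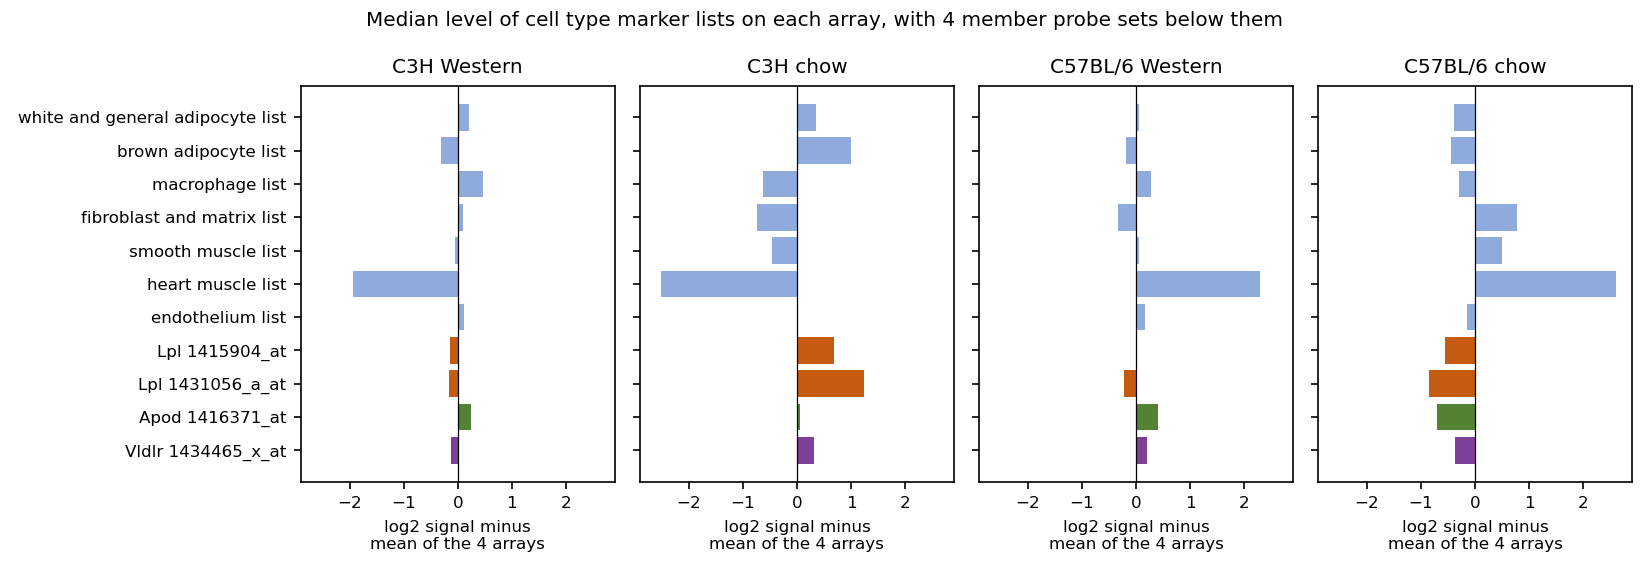
Median log2 signal of 7 cell type marker lists on each array, relative to each gene's mean over the 4 arrays (signals under the floor as measured), with single probe sets of Lpl, Apod and Vldlr beneath, each bar 1 list or probe set. On C3H chow the brown adipocyte list stands at 1.0 and Lpl at 0.69 and 1.24, and on C57BL/6 chow, where the fibroblast list is highest (0.78), Apod is lowest (-0.71).

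Among the genes measured on all arrays, 5646 in number, the 3 whose profiles over the 4 arrays were most like that of Lpl were Car3, Rnf10 and Ciz1. They differed from it by root mean square distances of log2 0.009, 0.032 and 0.038 after centring each gene. Car3, which encodes a carbonic anhydrase abundant in fat and muscle, had signals of 11602 on C3H Western, 20288 on C3H chow, 12809 on C57BL/6 Western and 8653 on C57BL/6 chow. For Apod the nearest were Ero1b, Api5 and Plcb3, at 0.037, 0.055 and 0.060. Over 4 arrays such distances describe the profiles only.

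Of the receptors, Lrp1, a large endocytic receptor of smooth muscle cells and macrophages, was the steadiest member. Its signals were 695.3 on C3H Western, 772.9 on C3H chow, 852.5 on C57BL/6 Western and 809.9 on C57BL/6 chow. All 4 comparisons lay between log2 -0.29 and 0.07, inside the spread between probe sets of a gene. The strain and diet terms of the additive limma fit were log2 -0.18 ± 0.32 and -0.04 ± 0.32 (SE, adjusted p = 0.958 and 1.0).

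Vldlr, the VLDL receptor of muscle, fat and endothelium, had 3 probe sets that were measured on every array. Set 1434465_x_at gave 1186 on C3H Western, 1615 on C3H chow, 1494 on C57BL/6 Western and 1004 on C57BL/6 chow. Set 1442169_at gave 152.9 on C3H Western, 177.5 on C3H chow, 199.6 on C57BL/6 Western and 124.7 on C57BL/6 chow, and set 1417900_a_at gave 260.3, 230.8, 311.0 and 309.5 on the same arrays. On chow the first pair were higher in C3H (log2 0.69 and 0.51) and the last lower (-0.42). On Western diet all 3 were lower in C3H, by log2 -0.33, -0.38 and -0.26. With Western diet in C57BL/6 they were higher by log2 0.57, 0.68 and 0.01, and in C3H they differed by log2 -0.45, -0.22 and 0.17. Set 1451156_s_at passed the floor on C3H Western alone, at 106.1 against 7.79 to 18.9 on the other arrays, while in each of the other 3 sets that array was below at least 1 of the C57BL/6 arrays.

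Counted over the set, the strains differed by 2-fold or more in Lpl alone among the measured probe sets, and on chow only. The chow comparison uses the C3H chow array, the one least like the others. On Western diet 0 of 11 measured probe sets were called as higher in C3H and 0 as lower, where 4.17% and 4.24% of all measured probe sets were. Of the 2 sets with only 1 array above the floor, 0 reached 2-fold by bound, against 19.6% of all such sets in either direction. On chow 2 of 9 were higher and 0 lower, where 8.2% and 8.94% of all were, and both belong to Lpl. A further 4 sets had 1 chow array above the floor, of which 3 reached 2-fold by bound (Apoc1 and 1 of Apoa1 higher in C3H, Lcat lower), against 27.8% of all such probe sets in either direction. The median over the 9 measured sets, which cover only 5 genes, was log2 0.77 on chow, against 0.03 over all probe sets. It was also 0.77 with bounds included. On Western diet it was -0.16 over 11 sets of 7 genes, against 0.01 over all.

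With Western diet, 1 of 10 measured probe sets was at least 2-fold lower in C3H (Lpl) and 0 higher, where 5.95% and 6.4% of all were. By bound 1 of 5 reached 2-fold (1 of Apoa1, lower), against 25.5% of all such sets in either direction. In C57BL/6, 1 of 10 was higher (Apod) and 0 lower, where 3.79% and 3.97% of all were, and the 1 set with a bound, Apoc1, reached 2-fold (higher), against 19.8% of all such sets in either direction. A single call in 10 sets is too few to set apart from these shares. The median response was log2 -0.33 in C3H (-0.17 with bounds) and 0.53 in C57BL/6 (0.56 with bounds), where all probe sets had medians of 0.00. The 10 measured sets cover 6 genes in each strain. The diet comparisons share no array with each other, but each shares an array with each strain comparison.

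**Figure D3:**
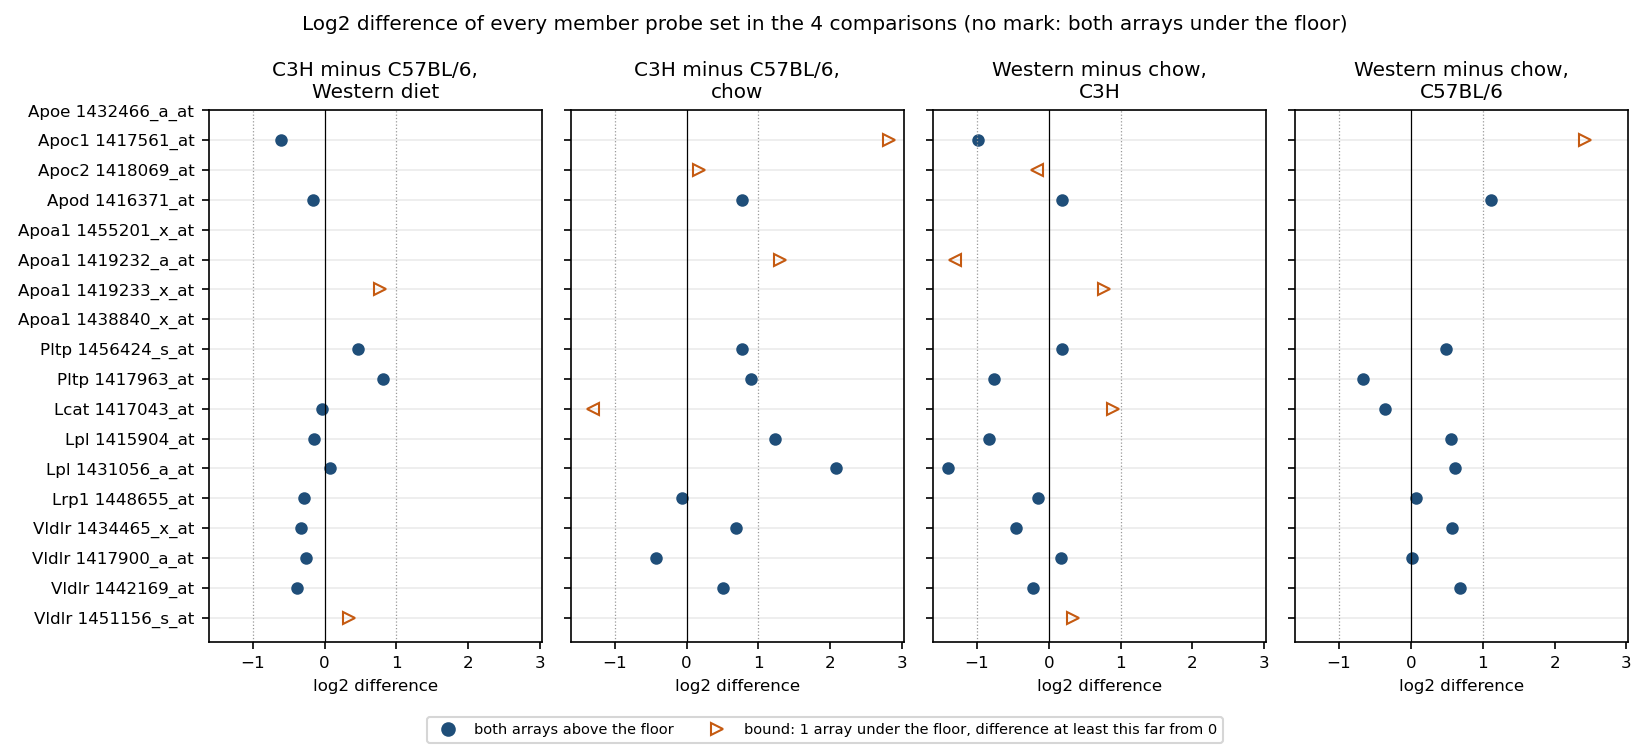
Log2 differences of all 18 probe sets (rows) in the 4 comparisons (panels), with circles where both arrays were above the floor, open triangles for bounds and dotted lines at 2-fold. On chow the Lpl sets (1.23 and 2.08) lie past the line, and on Western diet no circle does.

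The diet response differed at least 2-fold between strains for 3 of the 9 probe sets measured on all arrays, each lower in C3H (both of Lpl and 1434465_x_at of Vldlr), and 0 were higher in C3H. Of all probe sets, 12.4% were lower and 13.0% higher by this measure. The C3H response minus the C57BL/6 one was log2 -1.39 and -2.01 for Lpl and -1.02 for Vldlr, and between -0.93 and 0.17 for the other 6 sets. The 4 arrays leave no residual for a test of this difference. In the additive limma fit across 14915 probe sets, 0.382% had an adjusted p under 0.05 for strain and 0.0% for diet. None of the 11 member probe sets in the fit did for either term (lowest adjusted p = 0.755 for strain, with 2 at an unadjusted p under 0.05, and 1.0 for diet, with 0). Its error is the unreplicated interaction, with 1 residual degree of freedom beside a prior of 17.3. With 2 arrays on each side, the smallest two-sided p of an exact permutation test is 0.333.

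Further genes of lipoprotein metabolism, 55 on the array, differed about as often as genes in general. On Western diet 0 of 30 measured genes were called as higher in C3H and 2 as lower (all genes, 4.07% and 4.2%), with a median of log2 0.03. On chow 3 of 27 were higher and 1 lower (all genes, 8.01% and 9.1%), with a median of 0.04. With Western diet 2 of 33 were higher and 4 lower in C3H (all genes, 6.47% and 5.87%), and 1 of 28 was higher and 0 lower in C57BL/6 (all genes, 3.75% and 3.93%).

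Of 15 genes grouped as other apolipoproteins, 2 were measured on every array, Apobr, a receptor for apolipoprotein B-48, and Clu, which encodes apolipoprotein J. With both arrays above the floor, 5 of the 15 could be compared between strains on Western diet and 2 on chow. For diet this held for 5 in C3H and 3 in C57BL/6. None of these differences passed 2-fold. By bound, 3 of 18 differences did, in 2 genes named after their values were seen. Of all probe sets with a bound, 19.6% to 27.8% did, depending on the comparison. Apoa2, a protein of high-density lipoprotein, had signals of 187.5 on C3H Western, 191.1 on C3H chow, 183.6 on C57BL/6 Western and 19.7 on C57BL/6 chow. On chow it was thus higher in C3H by at least 2.29-fold. In C57BL/6 it was higher with Western diet by at least 2.2-fold. Saa3, a serum amyloid A protein, had 168.6 on C3H Western, 6.83 on C3H chow, 133.5 on C57BL/6 Western and 56.3 on C57BL/6 chow. With Western diet it was higher by at least 2.02-fold in C3H and by at least 1.6-fold in C57BL/6. Clu had signals of 7248 on C3H Western, 4940 on C3H chow, 7114 on C57BL/6 Western and 7423 on C57BL/6 chow. Among lipase partners, Furin, a protease that cleaves the lipase and its inhibitors, was 3.00-fold higher in C3H on chow (373.3 against 124.4 in C57BL/6). Angptl8, an inhibitor of the lipase, was higher by 2.63-fold on C3H Western (246.2) than on C3H chow (93.8) and under the floor on both C57BL/6 arrays. Lmf1, which folds the lipase, was named after its values were seen. It had signals of 144.9 on C3H Western, 315.2 on C3H chow, 120.6 on C57BL/6 Western and 42.7 on C57BL/6 chow. Pla2g7, the phospholipase carried on lipoproteins, was 2.10-fold lower in C3H on Western diet (207.9 against 437.7 in C57BL/6).

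Among receptors, Sorl1, a sorting receptor, was 2.53-fold lower in C3H on chow (240.6 against 608.8 in C57BL/6), while its other probe set was higher by log2 0.67. In lipid transfer and assembly, Abcg1, which exports cholesterol to high-density lipoprotein, had signals of 575.9 on C3H Western, 213.8 on C3H chow, 764.2 on C57BL/6 Western and 377.6 on C57BL/6 chow, and was thus higher on Western diet by 2.69-fold in C3H and 2.02-fold in C57BL/6. Dgat1, an enzyme of triglyceride synthesis, was highest on C3H chow like Lpl, at 2984 there against 1145 on C3H Western, 950.2 on C57BL/6 Western and 888.6 on C57BL/6 chow. Dgat2, the other such enzyme, was named after its values were seen. It had 6107 on C3H Western, 11760 on C3H chow, 6391 on C57BL/6 Western and 5000 on C57BL/6 chow. Srebf2, the regulator of cholesterol synthesis, was 2.75-fold lower in C3H on Western diet (88.5 against 243.1 in C57BL/6), while its other set ran the opposite way, with 103.7 on C3H Western and 75.1, under the floor, on C57BL/6 Western.

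**Figure D4:**
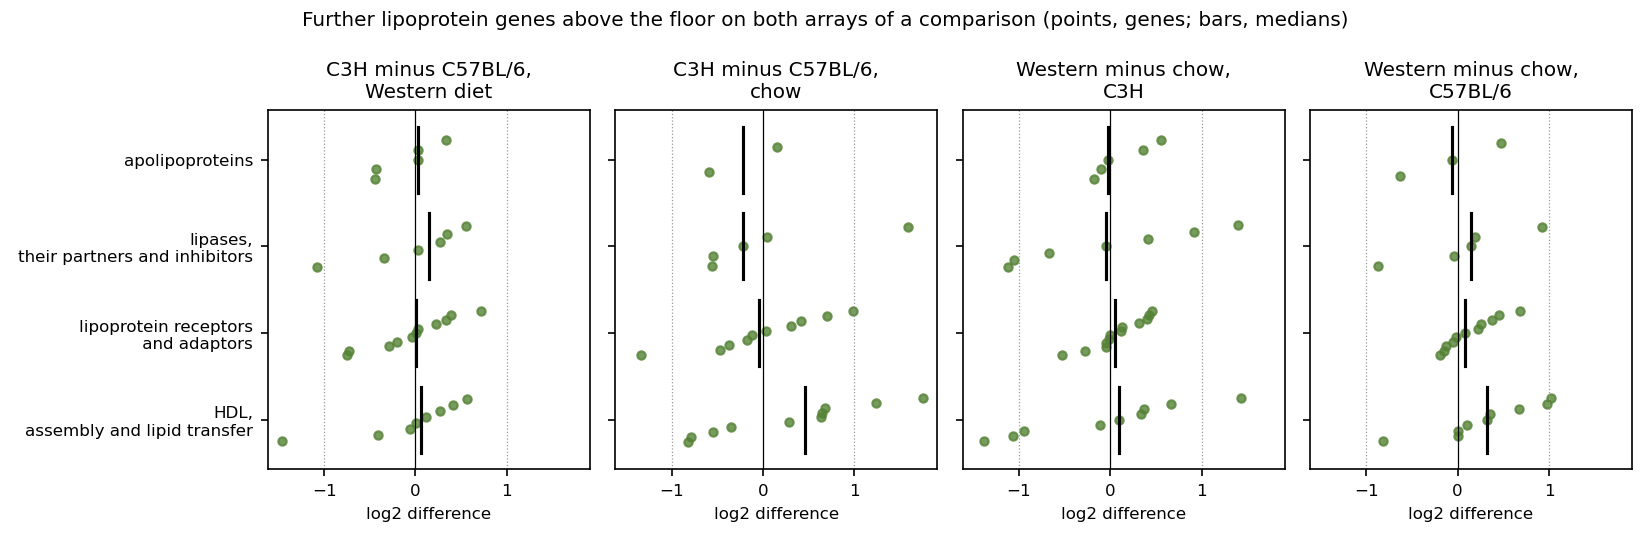
Log2 differences of further lipoprotein genes (points, 1 probe set per gene, both arrays above the floor) in the 4 comparisons, by role, with medians as bars and dotted lines at 2-fold. Most points lie between the lines, and the highest on chow is Dgat1 at 1.75.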

How the data were processed

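Aortic RNA of 4 groups was measured with 1 array each. Per the labels' protocols, biotinylated cRNA was made from 8 ug of Trizol-extracted RNA. The deposited values are linear intensities, 1 per probe set, that share a trimmed mean of 250.11 to 250.12, and the sources used here do not give the software behind them. The 64 control probe sets were left out. Log2 intensities were quantile normalized, the 40th percentile of all values served as a floor, and a signal under it was raised to it for a bound. Where a gene had several probe sets, the brightest on average stood for it. Of 22626 probe sets, 20380 name 1 gene, 691 several and 1555 none in the annotation given; all 18 member sets matched RefSeq (GRCm38.p6) by Entrez identifier.

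Members and lists were chosen with earlier results of these data known. The named genes are all members, per comparison up to 3 pathway genes with the largest 2-fold differences, and the 3 genes nearest in profile to members measured on all arrays that span at least 1 log2 unit. The additive fit (terms for strain and for diet, trended eBayes, Benjamini-Hochberg adjustment) used probe sets that exceeded the floor on 2 or more arrays, in limma 3.58.1 (R 4.3.3). It was also run on simulated data with independent noise of the same size for all probe sets. That simulation held no interaction of strain and diet, so it does not check the error that the fit uses here. The rest was done in Python 3.11.15 (scipy 1.17.1, pandas 2.3.3, numpy 2.4.6, and figures in matplotlib 3.10.9). The number of arrays limits the precision.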

Additional observations from a re-analysis of the deposited data

Results flagged for a closer look

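Diet responses pointed in opposite directions in the strains, at least 2-fold apart, for 5 of the 11 member probe sets with a value or a bound in each strain. The rest of the 18 could not meet this rule. This difference was not tested. The share of all probe sets that meet this rule, bounds included, was not counted, so whether 5 is unusual cannot be told. The C3H response minus the C57BL/6 response was log2 -3.41 for Apoc1 (-0.99 in C3H and at least 2.42 in C57BL/6) and 1.26 for Lcat (at least 0.90 in C3H and -0.36 in C57BL/6), both by bound. It was log2 -1.39 and -2.01 for the Lpl sets 1415904_at and 1431056_a_at, and -1.02 for Vldlr 1434465_x_at, which were measured on all arrays. Every C3H response is taken against the C3H chow array, the one least like the others.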

How the results depend on the processing

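The 2-fold counts of member probe sets were 0 of 11 for strain on Western diet and 2 of 9 for strain on chow. For diet they were 1 of 10 in each strain. These counts were the same with the deposited values and with equal array medians. With a higher floor (60th percentile) the same numbers were called. The numbers measured were then 9 and 8 for strain on Western diet and chow, and 9 for diet in each strain. Cyclic loess gave 1 for strain on chow, where the Lpl set 1415904_at had log2 0.96 in place of 1.23, and left the other counts. With the floor at the 25th percentile the counts were 4 of 11 for strain on chow. For diet they were 2 of 12 in each strain. At 1.5-fold they were 2 of 11 for strain on Western diet and 6 of 9 for strain on chow. For diet they were 4 of 10 in each strain. At 3-fold they were 1 of 9 for strain on chow and 0 of 10 for diet in each strain. The shares of all probe sets called with this floor or at these thresholds were not counted, so these counts have no background. In the additive limma fit, 57 probe sets were called for strain and 0 for diet (367 at an unadjusted p under 0.05). Without the filter limma called 119 and 5, without a mean trend 0 for strain (804 at an unadjusted p under 0.05), and with 1 probe set per gene 27 for strain. Of 120 recomputed differences of member genes, 4 changed sign, all under log2 0.5, and 1 moved by more than the spread between probe sets (Pltp with diet in C57BL/6, 0.49 by 1 set and -0.09 as the mean of both). No fit without the C3H chow array was possible, since 3 arrays leave no residual, but strain on Western diet and diet in C57BL/6 do not use it. No paired analysis was possible because each group has 1 array.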

Other observations

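Several further lipoprotein genes, picked out after their values were seen, kept both C3H arrays apart from both C57BL/6 arrays while staying under 2-fold in each comparison. Pon1 and Pon3, paraoxonases carried on high-density lipoprotein, had signals of 694.6 and 664.0 on C3H Western and 649.9 and 718.4 on C3H chow, against 523.1 and 449.4 on C57BL/6 Western and 418.7 and 448.4 on C57BL/6 chow. Stab1, a scavenger receptor of macrophages and endothelium, had 370.4 on C3H Western and 382.6 on C3H chow, against 225.4 on C57BL/6 Western and 193.3 on C57BL/6 chow. Mylip, a ubiquitin ligase that directs LDL receptors to breakdown, ran the other way, with 583.7 on C3H Western and 591.3 on C3H chow, against 980.1 on C57BL/6 Western and 821.3 on C57BL/6 chow. These differences have no replicate check. Heart muscle markers also kept the strains apart, with summed signals of 762.6 on C3H Western and 901.2 on C3H chow. On C57BL/6 Western and C57BL/6 chow the sums were 14303 and 18419. The part of heart tissue in these differences was not tested. The share of all probe sets that keep the strains apart in this way was not counted. With 2 arrays on each side, an exact permutation test cannot give a two-sided p under 0.333 for such a separation.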
